A study of Mus musculus with 3 samples.

Results

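The genes of podosome and sealing zone signalling, 10 in all, were followed in the RNA of apoptotic bodies (ABs) from bone marrow macrophages (BMM-ABs), from preosteoclasts (pOC-ABs) and from mature osteoclasts (mOC-ABs). The genes were named one by one for their place in this machinery: the kinases Src and Ptk2b, the exchange factor Vav3 with the GTPases Rac1 and Rhoa, the adhesion proteins Pxn, Tln1 and Vcl, and the actin regulators Cttn and Was. They are 10 of the 15861 genes in the deposited mRNA table, and their listed transcripts are 52 of its 56651. Of the 10, 9 reached 20 reads over the 3 libraries, as did 12713 of all genes, and Cttn did not.

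Osteoclasts attach to bone through podosomes, dots of actin surrounded by a ring of adhesion proteins, which pack into the sealing zone around the site of resorption. Engagement of the αvβ3 integrin recruits the kinases Src and Pyk2 (the product of Ptk2b), which act on Cbl, p130Cas and paxillin, while Vav3 loads Rac with GTP and the related GTPase Rhoa sets the turnover of the actin ring. Talin and vinculin tie the integrin to actin, and cortactin and WASP drive branching of actin through the Arp2/3 complex. Mice that lack Src have osteoclasts without a ruffled border and dense bones.

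ABs are membrane-bound fragments that dying cells shed. Bone marrow cells came from C57BL/6 mice aged 11 weeks (male, per the study's methods), with no genetic change named, and all 3 groups started from macrophages grown in M-CSF at 50 ng/mL. The BMM-ABs group had no RANKL, the pOC-ABs group had RANKL at 100 ng/mL for 24 h and the mOC-ABs group had the same dose for at least 72 h, both beside M-CSF at 30 ng/mL. The sample labels name alendronate (500 µM, 12 h) as the inducer of cell death in every group, whereas the study's methods name staurosporine (0.5 µM, 3 h) and 96 h of RANKL for mature osteoclasts, so the inducer and the last time point are not settled here. The labels also name the cells, and the series title and methods name ABs as the source of the RNA.

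Each group was 1 library, so no difference below has a replicate check, and no p-value is given. The mRNA tables held 9100082 reads for BMM-ABs, 7387317 for pOC-ABs and 7705592 for mOC-ABs, and 3 reads correspond to 0.330, 0.406 and 0.389 RPM, reads per 1000000 mRNA reads of the library. Ratios are given on the log2 scale with exact binomial 95% intervals from the reads, which cover counting error only, since reads without molecular identifiers are not independent molecules. Sets of 3 values below run from BMM-ABs through pOC-ABs to mOC-ABs. How far 2 libraries of 1 group would differ was not measured. The comparisons were pOC-ABs against BMM-ABs (G1), mOC-ABs against BMM-ABs (G2) and mOC-ABs against pOC-ABs (G3), and each pair of them shares a library.

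Osteoclast markers followed the labels, with 9 of 10 listed and a summed level of 344.9, 581 and 1870 RPM. Itgb3, the β3 integrin subunit that defines the osteoclast receptor, had 6, 3 and 0 reads, too few to compare, and Calcr had no row. The 7 macrophage markers summed to 2186, 1170 and 1231 RPM. Markers of 5 stromal, endothelial, megakaryocytic and lymphoid types each summed to at most 4.93 RPM in any library, and no neutrophil, erythroid or mast cell marker had a row. In a bulk library, more cells of a type and more RNA per cell cannot be told apart.

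Per unit of transcript length, the machinery was dominated by 2 genes. Levels of different genes are compared here as deposited FPKM (fragments scaled to transcript length and library depth) summed over the transcripts of a gene. Talin 1 (Tln1) stood at 249.1, 187 and 193.5 FPKM, and Rhoa at 154.4, 199.4 and 153.0 FPKM. Pxn, Ptk2b, Was and Rac1 formed a middle tier between 43.8 and 81.1 FPKM in all 3 libraries. Vav3 and Vcl lay at 14.0 to 29.9 FPKM.

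Summed over all transcripts, Src gained 2 places in this order from BMM-ABs to mOC-ABs and Ptk2b lost 2. Src ranked 9 of 10 in BMM-ABs and pOC-ABs, at 5.09 and 8.15 FPKM, and 7 of 10 in mOC-ABs at 34.96 FPKM, above Vav3 and Vcl. Ptk2b went from rank 3 in BMM-ABs to 4 in pOC-ABs and 5 in mOC-ABs. With protein-coding transcripts only, Src ranked 9, 9 and 6 and Ptk2b 5, 3 and 5, so Ptk2b then lost no place. Cttn was last at 0.067, 0 and 0.12 FPKM. Neighbours whose counting intervals overlapped were Vav3 and Vcl in BMM-ABs, and Ptk2b, Was and Rac1 in both osteoclast stages.

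**Figure D1:**
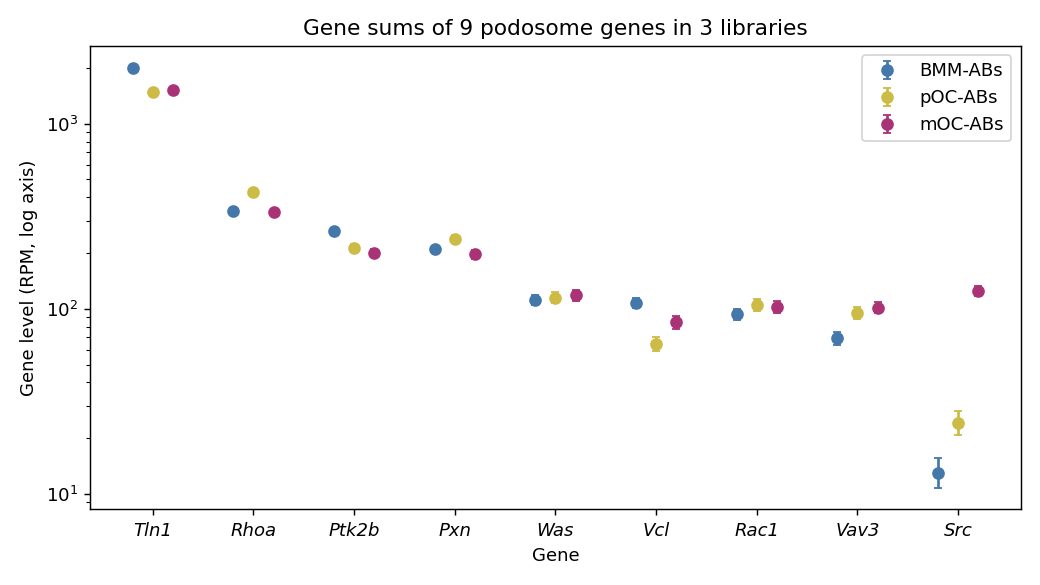
Gene reads scaled to the mRNA reads of the library (y axis, log scale) of the 9 genes with at least 20 reads, each point 1 library and each bar an exact Poisson 95% interval for counting error. Src stands at 13.0, 24.1 and 124.8 RPM, highest in mOC-ABs, while the other 8 genes each stay within 2-fold over the libraries.

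In gene sums, Src was the one member past 2-fold, and that in both comparisons with mOC-ABs. None of the 9 passed 2-fold in G1, 1 did in G2 and 1 in G3, both times Src and both times higher. Among all genes tested, 10.9% passed 2-fold in G1, 13.2% in G2 and 10.4% in G3, so the count of 1 in 9 is close to the background. Split by direction, 4.87%, 4.15% and 3.50% of all genes were higher and 6.06%, 9.01% and 6.86% lower. Past 1.5-fold there were 2 members in G1, Src (higher) and Vcl (lower), and Src alone in G2 and G3, beside 29.6%, 29.8% and 24.1% of all genes. The median log2 ratio of the 9 members was 0.17, −0.02 and 0.02 in G1, G2 and G3, against −0.02, −0.05 and −0.05 over all genes. Counting the lncRNA reads into the library totals moved the median of all genes to −0.22, −0.15 and 0.05.

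**Figure D2:**
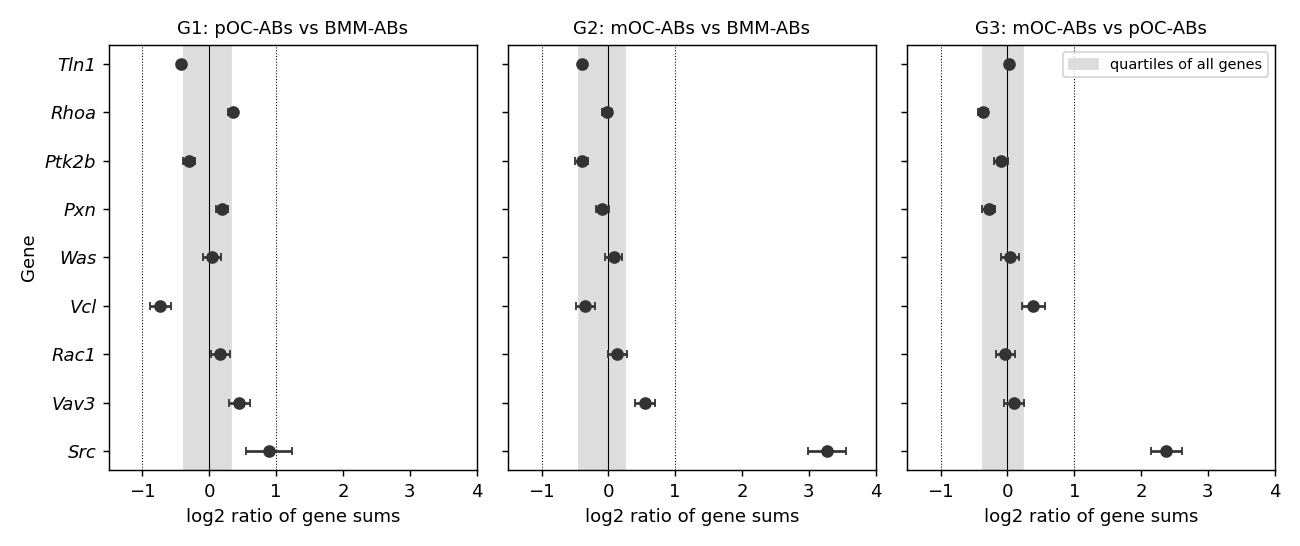
Log2 ratio of the gene sums of the 9 members in G1, G2 and G3, with exact binomial 95% intervals for counting error; dotted lines mark 2-fold and the grey band holds the middle quartiles of all 12713 genes. Src reaches 3.27 in G2 and 2.37 in G3, and Vcl lies at −0.73 in G1.

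Src (ENSMUSG00000027646, chr2:157418444-157471862, plus strand), the non-receptor tyrosine kinase that phosphorylates podosome proteins, had 118, 178 and 962 reads. The mOC-ABs library stood far above the others, and most of the climb lay between pOC-ABs and mOC-ABs. The log2 ratio was 0.89 (0.55 to 1.24) in G1, 3.27 (2.99 to 3.56) in G2 and 2.37 (2.14 to 2.61) in G3, that is 9.63-fold over BMM-ABs and 5.18-fold over pOC-ABs. Every osteoclast marker with a row except Itgb3 (6, 3 and 0 reads) was also highest in mOC-ABs. Ctsk had 180, 171 and 1001 reads and Acp5 had 88, 292 and 2157. Not all followed Src in each comparison: Ctsk was at 0.23 (−0.08 to 0.54) in G1 and Dcstamp at 0.20 (−0.17 to 0.57) in G3. The part of cell number in the Src difference was not tested.

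Coding exons that some main transcripts carry and others lack are shown for Src, Rac1 and Pxn, because the reads of those transcripts moved between libraries. They are read from the GENCODE M21 transcripts (build GRCm38), 5′ to 3′ on the coding strand, with the exon in capitals and 30 coding bases of each neighbour in lower case. The Src exon lies at chr2:157458843-157458860 on the plus strand and codes for 6 residues in the SH3 domain, the insert known from the neuronal form of Src. The Rac1 exon, at chr5:143509597-143509653 on the minus strand, codes for the 19 residues that make Rac1b, a form that exchanges its nucleotide fast. The Pxn exon, at chr5:115551488-115551589 on the plus strand, codes for the 34 residues of the beta form of paxillin.
Src exon: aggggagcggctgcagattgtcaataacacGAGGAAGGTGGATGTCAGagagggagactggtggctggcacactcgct
Rac1 exon: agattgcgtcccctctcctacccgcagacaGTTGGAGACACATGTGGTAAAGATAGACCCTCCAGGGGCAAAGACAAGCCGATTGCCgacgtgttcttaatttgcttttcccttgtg
Pxn exon: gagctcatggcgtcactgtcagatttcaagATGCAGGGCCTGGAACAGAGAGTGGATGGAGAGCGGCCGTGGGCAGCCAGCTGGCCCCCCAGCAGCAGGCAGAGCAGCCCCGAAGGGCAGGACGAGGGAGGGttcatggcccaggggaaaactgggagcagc

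The reads of Src fell on different transcripts in mOC-ABs. Src-205, a coding transcript of 535 residues, had 0, 0 and 894 reads and took 92.9% of the reads of the gene in mOC-ABs (Wilson 95% interval 91.1 to 94.4). Against a floor of 3 reads per library it was 352-fold higher in mOC-ABs than in BMM-ABs and 286-fold higher than in pOC-ABs. The exact binomial lower limit of its log2 ratio was 8.16 in G2 and 7.86 in G3. Src-202 went the other way with 64, 86 and 0 reads, and so did Src-203 with 29, 23 and 0. Src-201 had 21, 65 and 62 reads.

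Src-205 begins in a first exon of 69 bases at chr2:157418444, 5836 bases upstream of the start of Src-201. Apart from those 69 bases, all of its 3813 bases (98.2% of its length) are also in Src-201, so few reads can tell the pair apart, and the share that the authors' counting gave to each was not tested against the reads. Summed, the Src transcripts without the 18-base exon had 21, 65 and 956 reads in the 3 libraries, and those with it 93, 109 and 0. Transcripts with the exon thus held 81.6% of these reads in BMM-ABs (73.5 to 87.6) and 62.6% in pOC-ABs (55.3 to 69.5). In mOC-ABs they held 0 of 956. A floor of 3 reads for this count of 0 allows a share of up to 0.314%, and the Wilson upper limit is 0.400%. Of the bases of Src-202, 96.3% are also in Src-205. Reads that cover or skip the exon itself were not counted, so the authors' division of reads behind these shares was not tested. The form without the exon is the one that most tissues make.

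The window just before the start of Src-201 is shown because this start lost most of its share of Src reads in mOC-ABs. It covers chr2:157424043-157424279 on the plus strand (237 bases, RefSeq, build GRCm38.p6, whose promoter table held 6 of the 10 genes), with a GC box in capitals.
Src promoter: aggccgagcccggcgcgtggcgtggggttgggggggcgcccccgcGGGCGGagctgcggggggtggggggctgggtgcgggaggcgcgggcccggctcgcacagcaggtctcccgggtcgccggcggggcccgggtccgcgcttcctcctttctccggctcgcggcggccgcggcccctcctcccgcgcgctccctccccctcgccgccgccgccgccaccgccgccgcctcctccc
GC made up 84.8% of these bases, the first ones of the RefSeq promoter window of Src. The median was 51.9% over the same number of first bases of 32851 RefSeq promoter windows, whose distance to a transcript start was not matched. Searched on both strands, the window held 1 GC box (GGGCGG, found in 30.9% of windows) and 1 match to GGAA, the core of ETS and NFAT sites (92.4%). It held no AP-1 site (TGANTCA, 6.52%), no E-box of the MITF kind (CANGTG, 38.0%) and no TATAAA (12.0%). No sequence before the Src-205 start was read.

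**Figure D3:**
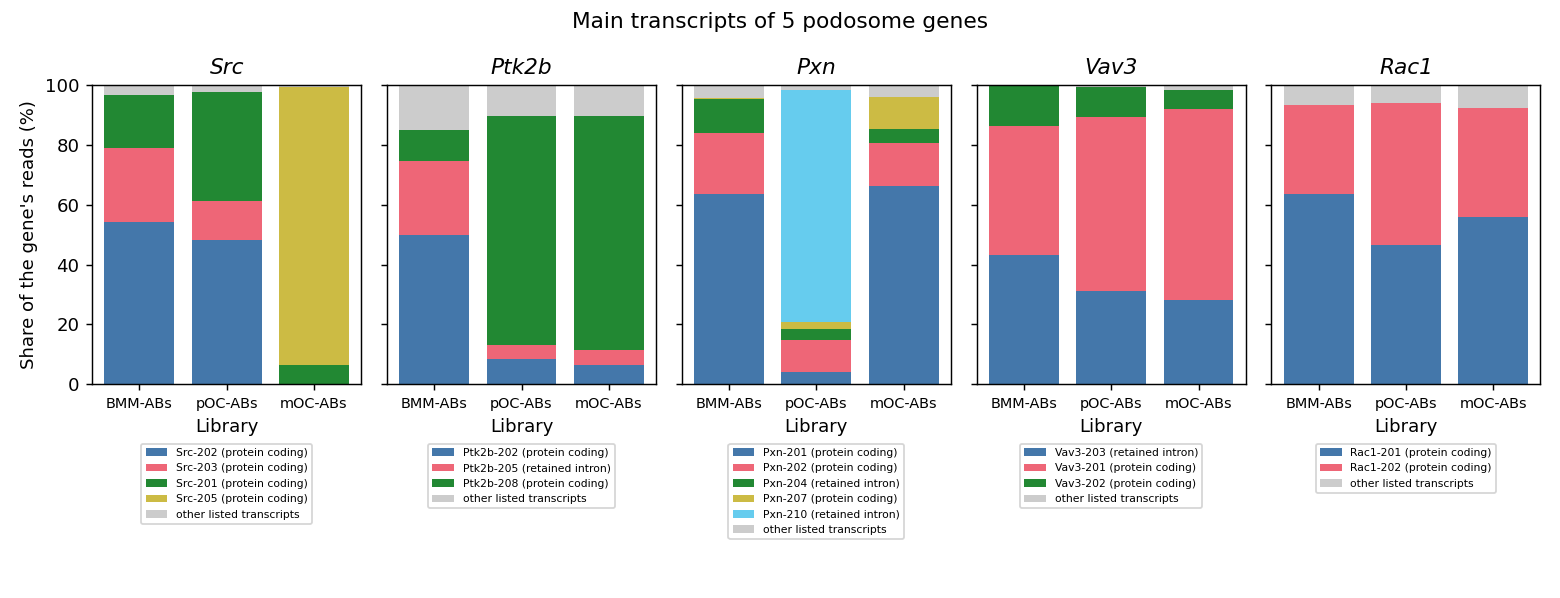
Share of the reads of each gene (percent, y axis) on its main transcripts in the 3 libraries (x axis) for Src, Ptk2b, Pxn, Vav3 and Rac1; grey is all other listed transcripts. Src-205 fills 92.9% of the Src bar in mOC-ABs alone, and Pxn-210 fills 77.5% of the Pxn bar in pOC-ABs alone.

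Fgr, Lyn and Fyn, relatives of Src among myeloid kinases, had lower gene sums in mOC-ABs than in BMM-ABs. Fgr, a kinase of macrophages and granulocytes, had 553, 325 and 132 reads, a log2 ratio of −1.83 (−2.11 to −1.55) in G2. Lyn had 1487, 1006 and 918 reads and Fyn 496, 385 and 294, neither past 2-fold. The macrophage markers given above were also lower in mOC-ABs, and their part in these ratios was not tested.

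Ptk2b (ENSMUSG00000059456, chr14:66153257-66281052, minus strand), whose product Pyk2 links integrin calcium signals to Src, differed little in its sum and much in its transcripts. It had 2394, 1574 and 1536 reads. The log2 ratio was −0.30 (−0.40 to −0.21) in G1 and −0.40 (−0.49 to −0.31) in G2, and both turned positive (0.17 and 0.05) when only protein-coding transcripts were summed. In G3 it was −0.10 (−0.20 to 0.01), and 0.00273 with the lncRNA reads counted into the library total. The gene was thus within 1.5-fold in every comparison.

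Most Ptk2b reads lay on one transcript in both osteoclast stages and on others in BMM-ABs. Ptk2b-202, coding for 967 residues, had 1196, 134 and 100 reads, a log2 ratio of −2.86 (−3.13 to −2.60) in G1 and −3.34 (−3.65 to −3.05) in G2. Ptk2b-208, coding for 1009 residues and starting 67500 bases downstream of the Ptk2b-202 start, had 249, 1209 and 1205 reads, 2.58 (2.38 to 2.78) in G1 and 2.52 (2.32 to 2.72) in G2. The pOC-ABs and mOC-ABs libraries stood close together, with a log2 ratio of −0.07 for Ptk2b-208 (−0.18 to 0.05) in G3. Of the bases of Ptk2b-202, 95.6% are also in Ptk2b-208, and how the authors' counting divided reads between them was not tested.

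Transcripts annotated as keeping an intron took 32.2% of Ptk2b reads in BMM-ABs against 5.91% in pOC-ABs and 7.29% in mOC-ABs. Ptk2b-205 was the main one of these, with 591, 70 and 74 reads. Over all genes, retained-intron transcripts took 5.22%, 4.21% and 3.85% of the mRNA reads.

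Vav3 (ENSMUSG00000033721, chr3:109340653-109685698, plus strand), the exchange factor that activates Rac downstream of the β3 integrin in osteoclasts, had 632, 700 and 781 reads. Its log2 ratio was 0.45 (0.29 to 0.61) in G1, 0.55 (0.39 to 0.70) in G2 and 0.10 (−0.05 to 0.25) in G3. By the authors' counts the difference lay on the full-length transcript Vav3-201 (847 residues), with 272, 407 and 499 reads and a log2 ratio of 1.12 (0.90 to 1.33) in G2. How that counting divided reads among the Vav3 transcripts was not tested. Vav3-203, which keeps an intron, had 273, 219 and 219 reads, and the short coding Vav3-202 (287 residues) had 85, 70 and 51, and their intervals included a log2 ratio of 0 in all 3 comparisons. Retained-intron reads were 43.2%, 31.3% and 28.0% of the gene. The related Vav1 had 1815, 1152 and 1248 reads and Vav2 had 197, 125 and 268.

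Rac1 (ENSMUSG00000001847, chr5:143503634-143528036, minus strand), the GTPase that spreads the actin ring, was nearly level. It had 850, 774 and 790 reads and log2 ratios of 0.17 (0.02 to 0.31) in G1, 0.13 (−0.01 to 0.28) in G2 and −0.03 (−0.18 to 0.11) in G3, and the sign in G1 and G3 turned under at least 1 other scaling. Rac1-201 (192 residues) had 541, 359 and 441 reads and Rac1-202 (211 residues, with the 57-base exon) had 253, 369 and 289. Of the reads of transcripts that have or skip the exon, Rac1-202 held 31.7% in BMM-ABs (28.6 to 35.1) and 50.6% in pOC-ABs (47.0 to 54.2). It held 39.5% in mOC-ABs (36.1 to 43.1), so the pOC-ABs library stood highest. By FPKM, which corrects for the longer Rac1-201, the shares were 44.6%, 64.3% and 53.6%. Of the bases of Rac1-202, 97.55% are also in Rac1-201, and how the authors' counting divided reads between them was not tested. Rac2, the form of blood cells, had 8034, 7727 and 9935 reads and 290.8, 344.5 and 424.7 FPKM, above the FPKM of Rac1 in each library.

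Rhoa (ENSMUSG00000007815, chr9:108306129-108337934, plus strand), which drives contraction and podosome turnover through ROCK and formins, had 3071, 3175 and 2566 reads. It was highest in pOC-ABs, at a log2 ratio of 0.35 (0.28 to 0.42) in G1, −0.02 (−0.10 to 0.06) in G2 and −0.37 (−0.44 to −0.29) in G3, and the sign in G2 turned with the scaling. Nearly all of its reads were on Rhoa-201 (98.1%, 97.5% and 98.8%). Its relatives differed more: Rhob had 1540, 849 and 488 reads (log2 −1.42 in G2, −1.57 to −1.27) and Rhoc had 1230, 1195 and 560 (log2 −1.15 in G3, −1.30 to −1.01).

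Pxn (ENSMUSG00000029528, chr5:115506676-115555987, plus strand), the gene of the adaptor paxillin, had 1905, 1767 and 1515 reads, a log2 ratio of 0.19 (0.10 to 0.29) in G1, −0.09 (−0.19 to 0.01) in G2 and −0.28 (−0.38 to −0.18) in G3. Its sign turned with another scaling or with FPKM in all 3 comparisons. Its transcripts differed far more than its sum, with the pOC-ABs library apart from the others. Pxn-201, the main coding transcript of 557 residues, had 1211, 71 and 1004 reads, whereas Pxn-210 had 0, 1370 and 0. Pxn-210 is annotated as keeping an intron of 95 bases (chr5:115545509-115545603), and 98.9% of the bases of Pxn-201 are also in it.

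The coding transcripts of Pxn alone gave 1641, 314 and 1428 reads, a log2 ratio of −2.09 in G1 and 2.12 in G3. Retained-intron transcripts took 13.6% of Pxn reads in BMM-ABs, 82.2% in pOC-ABs (80.3 to 83.9) and 5.41% in mOC-ABs. Over all genes this share was not higher in pOC-ABs than in BMM-ABs. How the authors' counting divided reads between the near-identical Pxn-201 and Pxn-210 was not tested.

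Pxn-202, the beta form with the 102-base exon (591 residues), had 386, 193 and 217 reads. It took 24.1% of the reads of the transcripts that have or skip the exon in BMM-ABs (22.1 to 26.3), 11.8% in pOC-ABs (10.3 to 13.5) and 17.7% in mOC-ABs (15.7 to 19.97). Here Pxn-210, with all of its reads in pOC-ABs, counts among the transcripts without the exon. Among coding transcripts only, the shares were 24.2% (22.1 to 26.3), 73.1% (67.4 to 78.1) and 17.8% (15.7 to 20.02), so the pOC-ABs library turned from the lowest to the highest. Pxn-204, also annotated as keeping an intron, had 221, 64 and 69 reads, a log2 ratio of −1.49 in G1 and −1.44 in G2. A short coding transcript, Pxn-207, had 2, 41 and 166 reads, a log2 ratio of 6.62 (4.74 to 9.67) in G2 and 1.96 (1.46 to 2.49) in G3.

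**Figure D4:**
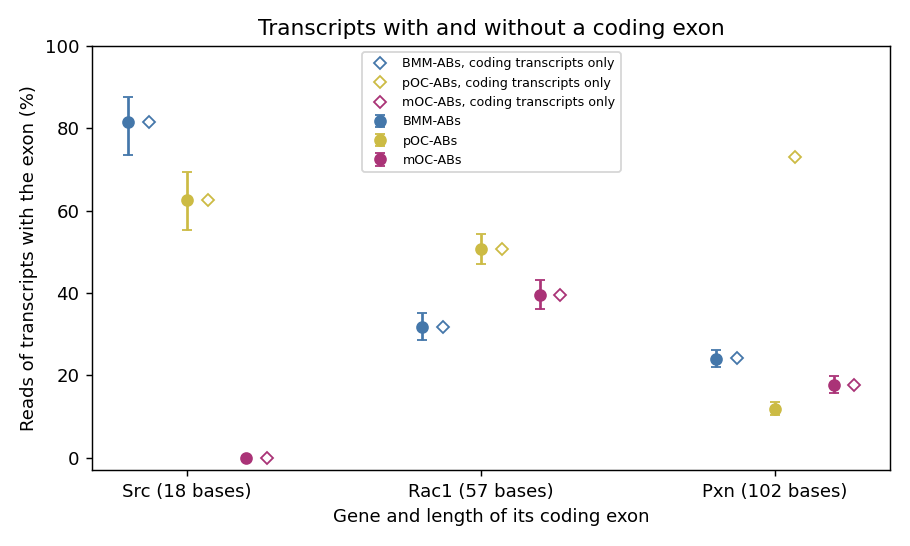
Percent of reads on transcripts with the exon (y axis), out of all listed transcripts with or without it (filled) or of the coding ones alone (open), for the exons of Src, Rac1 and Pxn in the 3 libraries; bars are Wilson 95% intervals for counting error. Src runs from 81.6% in BMM-ABs to 0% in mOC-ABs, Rac1 stands highest in pOC-ABs at 50.6%, and Pxn in pOC-ABs lies at 11.8% filled and 73.1% open.

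Tln1 (ENSMUSG00000028465, chr4:43531519-43562691, minus strand), whose product talin activates integrins and binds vinculin, had 18184, 11019 and 11669 reads, a log2 ratio of −0.42 (−0.46 to −0.39) in G1, −0.40 (−0.43 to −0.37) in G2 and 0.02 (−0.02 to 0.06) in G3. At least 99.2% of its reads were on Tln1-201 in each library. A short coding transcript of the gene, Tln1-206, had 19, 30 and 62 reads.

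Vcl (ENSMUSG00000021823, chr14:20929398-21033676, plus strand), the gene of vinculin, which reinforces the talin link, was the member with the lowest ratio in G1. It had 976, 477 and 651 reads, a log2 ratio of −0.73 in G1 (−0.89 to −0.57, or 0.602-fold), −0.34 (−0.49 to −0.20) in G2 and 0.39 (0.22 to 0.56) in G3. At least 97.7% of its reads were on Vcl-201 in each library. The 3 adhesion genes thus had no common direction: Tln1 and Vcl were lower in both osteoclast stages than in BMM-ABs, and the sign of Pxn depended on how it was summed.

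Cttn and Was, the actin regulators, were a low and a level gene. Cttn (ENSMUSG00000031078, chr7:144435733-144471009, minus strand), the gene of cortactin, had 2, 0 and 3 reads, at or under the floor in every library, so its level could not be compared at this depth. Its haematopoietic relative Hcls1 had 2778, 2471 and 2252 reads, a log2 ratio of 0.13 in G1 and −0.06 in G2. Was (ENSMUSG00000031165, chrX:8081453-8090498, minus strand), the gene of WASP in blood cells, had 1019, 848 and 911 reads and log2 ratios of 0.04, 0.08 and 0.04 whose intervals all included 0, and which turned negative in G1 and G2 with the lncRNA reads counted into the library total. At least 99.2% of its reads were on Was-201 in each library. Its relative Wasl had 212, 195 and 173 reads.

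More main transcripts than gene sums of the members passed 2-fold, as over all genes. Of the main transcripts of the members (at least 10% of the reads of the gene in at least 1 library, 21 in all), 8 of 20 with reads passed 2-fold in G1, 10 of 20 in G2 and 6 of 21 in G3. That is 40.0%, 50.0% and 28.6% of them, beside 33.1%, 33.9% and 31.7% of all main transcripts, and transcripts of 1 gene share its reads. They came from Src, Ptk2b and Pxn in G1, from these and Vav3 in G2, and from Src and Pxn in G3.

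The read shift, the percent of the reads of a gene that would have to change transcript to match the other library, was computed after the transcript values had been seen. It was over 50% in 2 of 9 members in each comparison: Ptk2b (67.7%) and Pxn (80.0%) in G1, Src (92.9%) and Ptk2b (68.4%) in G2, and Src (92.9%) and Pxn (78.0%) in G3. Over 6875 genes with at least 100 reads in each library and at least 2 listed transcripts, 6.50%, 6.60% and 6.78% had so large a shift. The remaining members had little: Tln1, Vcl, Was and Rhoa shifted by at most 1.85% in any comparison, and Vav3 and Rac1 by at most 22.1%. The median over all genes was 9.32%, 9.11% and 8.83%.

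A wider list of 69 genes of the same machinery, 66 with at least 20 reads, showed few differences past 2-fold. There were 3 in G1 (2 higher, 1 lower), 8 in G2 (5 higher, 3 lower) and 6 in G3 (4 higher, 2 lower), that is 4.55%, 12.1% and 9.09% of the list beside 10.9%, 13.2% and 10.4% of all genes. The median log2 ratio was 0.04, 0.04 and −0.02.

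Of the 15 upstream signals, Csf1r, the M-CSF receptor, was the lowest, with 9870, 2640 and 3902 reads, or −1.60 (log2) in G1 and −1.10 in G2. The phosphatase Ptprj, which acts on Src-family kinases, had 1645, 718 and 992 reads (−0.90 in G1). Vav2 was the one past 2-fold upward, at 1.04 (0.73 to 1.36) in G3. In each comparison 1 of the 14 measured signals passed 2-fold (7.14%), beside 10.9%, 13.2% and 10.4% of all genes in G1, G2 and G3. The αv integrin subunit Itgav had 392, 235 and 483 reads, while its partner Itgb3 stayed at or below 6.

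Of the 13 GTPase regulators and effectors, Dock5 alone passed 2-fold. That is 7.69% of the group in G2 and in G3, beside 13.2% and 10.4% of all genes. Dock5, an exchange factor for Rac that osteoclasts need for the sealing zone, had 1602, 1876 and 4138 reads, a log2 ratio of 1.61 (1.53 to 1.69) in G2 and 1.08 (1.001 to 1.16) in G3. Its relative Dock1 had 1479, 897 and 779 reads. The downstream kinases Rock1, Rock2, Pak1 and Pak2 stayed within 1.5-fold in all 3 comparisons.

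In the adhesion plaque group, 3 of 13 genes were past 2-fold higher in G2, beside 4.15% of all genes. In either direction, 15.4%, 23.1% and 7.69% of the group passed in G1, G2 and G3, beside 10.9%, 13.2% and 10.4% of all genes. Bcar1, the gene of p130Cas, a substrate of Src and Pyk2, had 62, 126 and 186 reads, a log2 ratio of 1.32 (0.87 to 1.79) in G1 and 1.83 (1.40 to 2.26) in G2. The tensin gene Tns3 had 5712, 4753 and 10101 reads (1.06 in G2 and 1.03 in G3) and the α-actinin gene Actn1 had 1353, 1700 and 2459 (1.10 in G2). Lims1, the gene of the adaptor PINCH1, had 595, 1105 and 964 reads (1.19 in G1, 1.05 to 1.34), and the filamin gene Flna had 7796, 3842 and 3713 (−0.72 in G1).

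In the actin core group of 15, Gsn was the only gene past 2-fold, 6.67% of the group in G2 beside 13.2% of all genes. Gsn, the gene of gelsolin, which cuts and caps actin in podosomes, had 3899, 4150 and 6857 reads, a log2 ratio of 1.05 (0.998 to 1.11) in G2. The Arp2/3 subunit Arpc3 had 807, 1273 and 843 reads, 0.96 (0.83 to 1.09) in G1. Of the 11 relatives of the members, Fgr, Rhob and Rhoc were the ones past 2-fold downward in G2 or G3, and Rac3 (11, 6 and 14 reads) the one past it upward, in G3, with an interval that included 0. That is 0%, 18.2% and 27.3% of these relatives in G1, G2 and G3, beside 10.9%, 13.2% and 10.4% of all genes.

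**Figure D5:**
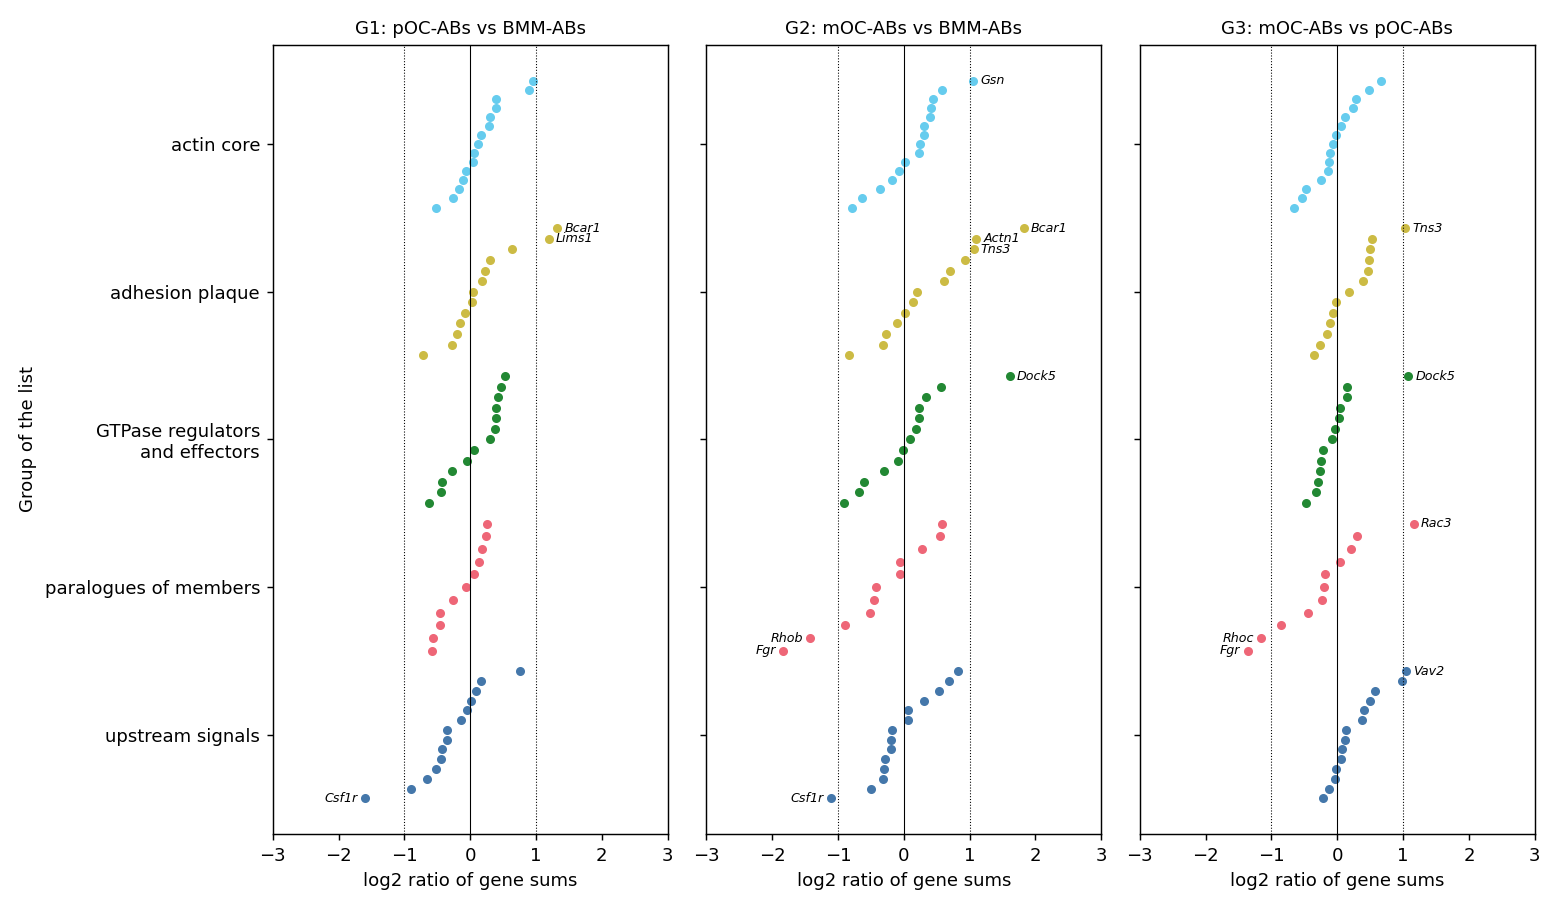
Log2 ratio of gene sums (x axis) of the 66 genes of the wider list, by group (y axis), in G1, G2 and G3; each point is a gene, dotted lines mark 2-fold, and genes past it are named. In G2 Dock5 and Bcar1 stand highest at 1.61 and 1.83 and Fgr lowest at −1.83.

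Other RNA classes at these loci were sparse. Circular RNA junctions were counted at Vav3 alone among the members, with 5, 4 and 9 reads across one junction (chr3:109525869-109528384) and 3, 0 and 0 across another (chr3:109562743-109578364). All circular junctions together had only 3413, 2380 and 4014 reads, from libraries that the study's methods describe as poly-A selected. Long noncoding transcripts that overlap a member, whose ratios are scaled to the mRNA and lncRNA reads of a library together, had 208, 66 and 54 reads at Ptk2b, a log2 ratio of −1.55 (−1.98 to −1.15) in G1 and −1.81 (−2.27 to −1.37) in G2, and 63, 20 and 21 reads at Rac1, −1.55 (−2.36 to −0.81) in G1. All of these at Ptk2b (5) and Rac1 (2) lie inside the gene and outside its exons. The retained-intron transcripts of Ptk2b were lower in the same libraries. Vav3, Rhoa, Src, Tln1 and Vcl had at most 35 such reads in any library, and Pxn, Cttn and Was had no such transcript.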

How the data were processed

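RNA of ABs was sequenced from 3 groups, BMM-ABs, pOC-ABs and mOC-ABs, with 1 library in each. The authors deposited a read count and an FPKM value per transcript in an mRNA table and a lncRNA table, and circular RNA junctions as counts and as a depth-scaled signal, which was not used. Per the labels and the study's methods, the paired-end libraries were made from poly-A selected RNA (the labels say total RNA), and the submitters' processing notes name FastQC, HISAT2, StringTie and the build GRCm38, with versions not given in the sources used here. Column names of the tables give hours of RANKL, and 0, 24 and 72 h were matched to the groups through the labels' growth conditions.

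From these deposited counts, reads of all transcripts of a gene were summed with GENCODE M21 and scaled to the mRNA total of the library. Reads of transcripts without a gene were at most 0.111% of a library and entered no gene. With 1 library per group no test across replicates could be run. Ratios carry exact binomial (Clopper-Pearson) 95% intervals and shares carry Wilson 95% intervals. Calls were made past 2-fold, the fold limit of the study's methods, without their limit on the adjusted p-value, for genes with at least 20 reads over the libraries. The depth of 7387317 to 9100082 mRNA reads limits what can be seen of genes at a few reads. Gene ratios, their intervals and the 2-fold calls were tested on simulated counts with counting error only. The transcript shares, exon shares, read shift and promoter steps were not simulated. Python 3.11.15, numpy 2.4.6, pandas 2.3.3, scipy 1.17.1 and matplotlib 3.10.9 were used.

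All 10 genes were named with their main transcripts, and of the wider list each gene past 2-fold and the 3 highest and 3 lowest ratios in each comparison. Others of that list named in the text (Itgav, Itgb3, Vav1, Dock1, Rac2, Hcls1, Wasl, Fyn, Lyn, Rock1, Rock2, Pak1, Pak2), and Tln1-206, were chosen after their values were seen. The genes and lists were chosen with earlier results of these data known. The read shift and the exon comparison were also chosen after values were seen. Alternatives were the library total, size factors, upper quartile, FPKM with pseudocounts of 0, 0.1 and 1, the transcripts summed, the fold limit and the minimum of reads, and exon shares over coding transcripts only were added after seeing the data. A gene of the wider list and an exon of a member are not reported here.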

Additional observations from a re-analysis of the deposited data

Results flagged for a closer look

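Among the lncRNA transcripts and circular junctions at the 10 genes, 1 transcript was above its level in BMM-ABs, the control stage, by more than the counting interval of the ratio, which was scaled to the mRNA and lncRNA reads together. The lncRNA transcript NONMMUT044822.2, inside the Vav3 gene at chr3:109450901-109453210 and outside its exons, had 3, 0 and 13 reads from BMM-ABs through pOC-ABs to mOC-ABs, a log2 ratio of 2.26 in G2 (0.39 to 4.71). A neighbouring transcript that overlaps its span, NONMMUT044823.2, had 29, 11 and 2 reads and was lowest in mOC-ABs. With so few reads the division between the overlapping pair was not tested. The share of all lncRNA transcripts past the same limit was not computed, so the count of 1 cannot be read against a background.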

How the results depend on the processing

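No paired analysis was possible because each group has 1 library, and no library could be left out for the same reason. Src stayed past 2-fold in G2 (2.56 to 3.31) and G3 (1.97 to 2.47) and below it in G1 (0.59 to 0.93) under every alternative run. Of 216 alternative log2 ratios of single members, 171 stayed within the counting interval, and 45 left it. Of these, 2 passed 2-fold with the opposite sign, both Pxn with protein-coding transcripts only (−2.09 in G1 and 2.12 in G3). With these transcripts only, the members past 2-fold were 1 of 9 in G1 and 2 of 9 in G3, and the wider list held 5 of 66 in G1. Of all 12713 genes, 1521 then passed in G1 and 1444 in G3. Of 30 ranks by FPKM, 17 stayed the same, and Ptk2b no longer lost places from BMM-ABs to mOC-ABs. For Pxn this sum left out the retained-intron transcripts, 82.2% of its reads in pOC-ABs. How reads were divided between these and the coding transcripts was not tested. Without a minimum of reads, the members past 2-fold were 1 in G1 and 2 in G3, the added one being Cttn at 2, 0 and 3 reads. At 1.5-fold, 2 members passed in G1, 11, 22 and 10 genes of the wider list in G1, G2 and G3, and 13 of 20 main transcripts in G1. The share of all main transcripts past 1.5-fold was not computed. With the lncRNA reads in the library total, the median of the members in G1 was −0.0331, since the totals moved all genes. With FPKM and a pseudocount of 1, 3 genes of the wider list passed in G3, against 4 by FPKM with none and 6 by reads, and the cause was not tested. Among all genes, the calls in G1, G2 and G3 were 1390, 1673 and 1317, against 728, 972 and 667 with that pseudocount, 3758, 3792 and 3058 at 1.5-fold, and 3041, 3388 and 3019 without a minimum of reads. Cttn and Itgb3 had too few reads to compare. Of their annotated transcripts, 1 of 7 and 1 of 2 were listed, and the reason for the low counts was not tested.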
